A study of Mus musculus with 4 samples.

Results

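The genes described here are the core of the decision that takes a cell from G1 into S phase: the cyclin D genes Ccnd1, Ccnd2 and Ccnd3, their kinases Cdk4 and Cdk6, the inhibitors Cdkn1a, Cdkn1b, Cdkn2c and Cdkn2d, and the retinoblastoma gene Rb1. They were chosen by symbol, and each of the 10 matched 1 of the 55487 gene identifiers in the deposited tables. All 10 passed the filter on low counts, as did 27551 genes in all. RNA came from muscle stem cells, also called satellite cells, of Tg:Pax7-nGFP mice, which carry a nuclear green fluorescent protein under control of the stem cell gene Pax7. Minced skeletal muscle was exposed during the initial digestion either to the Control morpholino or to the Numb exon 6 morpholino. A vivo-morpholino is an antisense oligomer that enters cells without transfection, and the second one blocks inclusion of exon 6 of Numb. The groups were 2 control and 2 Numb exon 6 libraries, 1 of each from each of 2 mice, and every library carried the Pax7-nGFP transgene. The labels used here give no age, and no untreated muscle was compared.

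In a resting satellite cell the retinoblastoma protein holds E2F transcription factors inactive. Growth signals raise cyclin D, which binds CDK4 or CDK6, and the complex phosphorylates the retinoblastoma protein so that E2F can turn on the genes of DNA replication. The INK4 proteins, encoded here by Cdkn2c (p18) and Cdkn2d (p19), bind CDK4 and CDK6 and keep cyclin D away. The CIP/KIP proteins, encoded by Cdkn1a (p21) and Cdkn1b (p27), act on assembled cyclin-CDK complexes and above all on CDK2, and p27 is known for limiting the cycling of muscle stem cells. MyoD, the myogenic factor that rises when satellite cells activate, is known to raise Cdkn1a as muscle cells leave the cycle.

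The libraries held 230431665 to 355411827 estimated counts, which derive from coverage and are not numbers of fragments. The control library of mouse 1 had the largest share of counts in AY036118 and CT010467.1, which are rRNA-like, 8.95% against 5.00% to 6.53% in the other libraries. All 7 satellite cell markers examined were present in every library, and the lowest of them, Pax7, stood at 37.0 to 59.7 TPM (a level scaled to transcript length and library size). Summed TPM of markers of other cells was 29.4 to 131 for 10 leukocyte genes, 87.0 to 128 for 8 endothelial genes, 764 to 958 for 8 genes of fibro-adipogenic progenitors and 538 to 1733 for 5 erythroid genes. The leukocyte genes of highest mean TPM, Cd68 and S100a8, stood at 17.6 to 21.2 and 1.78 to 46.5 TPM. RNA of bulk samples does not tell fewer cells of a type from less RNA per cell.

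Cdkn1a dominated the set. It stood at 553 TPM with the control and 609 TPM with the Numb exon 6 morpholino in mouse 1, and at 913 and 827 TPM in mouse 2, above 99.4% of the genes detected in each library. Cdk4 came next at 75.7 to 96.5 TPM, and its range touched neither that of Cdkn1a above nor that of Ccnd3 below. Ccnd3, Cdkn2c, Ccnd1, Cdkn2d, Cdkn1b and Rb1 followed with mean levels of 21.6, 16.2, 15.8, 13.9, 13.0 and 8.49 TPM. Each neighbouring pair in that stretch had overlapping ranges over the 4 libraries. Ccnd3 was nonetheless above Cdkn2c in every library. The order of the other neighbours turned in at least 1 library, so it is not beyond their spread. Pairs farther apart can be told apart: Rb1 was below Ccnd3, Cdkn2c and Ccnd1 in every library. Cdk6 and Ccnd2 were lowest, at means of 4.72 and 4.46 TPM, and they overlapped each other but not Rb1. Cdkn1a therefore exceeded Cdk4 by 5.73- to 12.1-fold and Cdkn1b by 44.3- to 68.1-fold in the same library.

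**Figure D1:**
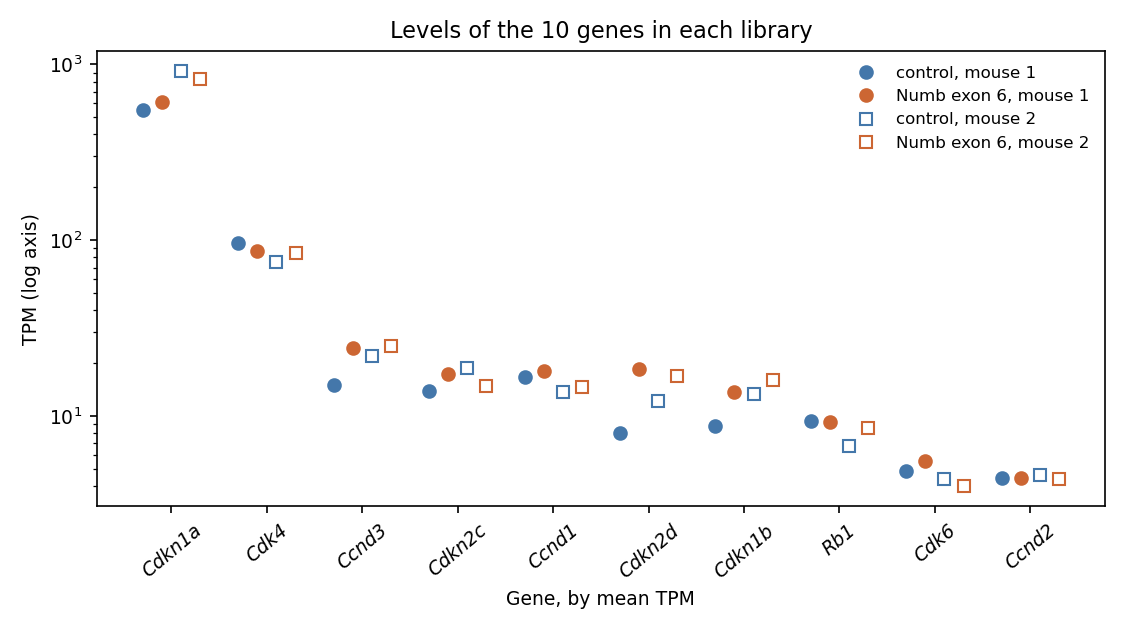
TPM (log axis) of the 10 genes, ordered by mean, with 1 point per library (blue, control morpholino; orange, Numb exon 6 morpholino; filled circles, mouse 1; open squares, mouse 2). Cdkn1a lies at 553 to 913 TPM and Cdk4 at 75.7 to 96.5 TPM in every library, above the other 8 genes.

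Upstream sequence is shown for these leading genes, since both hold elements that textbook accounts of their control turn on. RefSeq (GRCm38.p6) gave 10 windows of 250 bases before a start site, for 7 of the 10 genes. Both windows shown end just before the first annotated exonic base of their gene, at 249 bases for Cdk4 and 247 for Cdkn1a. The window of Cdk4 is chr10:127063285-127063533 on the plus strand, before a start at 127063535. The window of Cdkn1a is chr17:29090729-29090975 on the plus strand, before the upstream one of its start sites at 29090979. The window before its start at 29093769 is not shown, since all 250 bases there are exonic in the gene model AC167363.2. Capitals in Cdk4 mark the E-box CACGTG, the preferred site of MYC and its partners, and capitals in Cdkn1a mark a p53 element made of 2 adjoining half-sites with at most 1 mismatch to the consensus.
Cdk4: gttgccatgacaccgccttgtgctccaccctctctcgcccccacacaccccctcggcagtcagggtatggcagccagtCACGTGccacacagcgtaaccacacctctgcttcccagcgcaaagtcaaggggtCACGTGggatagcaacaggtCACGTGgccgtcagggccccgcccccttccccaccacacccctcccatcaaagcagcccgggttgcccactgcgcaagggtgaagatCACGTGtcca
Cdkn1a: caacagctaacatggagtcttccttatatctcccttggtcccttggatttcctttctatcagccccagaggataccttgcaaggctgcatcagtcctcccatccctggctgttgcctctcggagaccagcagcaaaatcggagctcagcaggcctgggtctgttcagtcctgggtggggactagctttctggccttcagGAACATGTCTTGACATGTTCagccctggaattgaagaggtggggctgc

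Cdk4 held 4 copies of CACGTG, beginning 172, 118, 98 and 11 bases before the start. The window of Cdk6, not shown, held 1 copy, beginning 220 bases before its start, and the windows of the other genes held none. Of 32851 such windows across the genome, 1978 (6.02%) held at least 1 copy and 7 (0.0213%) held 4 or more, a limit equal to the count in Cdk4. The motif reads the same on both strands. The Cdkn1a element, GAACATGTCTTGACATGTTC, lay 51 to 32 bases before the upstream start, and 25 of the 32851 windows (0.0761%) held a match of that kind on either strand. The E2F motifs TTTCCCGC and TTTGGCGC were searched as well and had no match in any window of these genes. Of the 32851 windows, 0.895% and 0.417% held them. These matches describe letters and say nothing of binding in these cells.

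The study looked for genes whose transcripts change in activating stem cells once Numb exon 6 is blocked, and none of the 10 genes passed the test. The edgeR quasi-likelihood test over all 27551 genes called 0 of them, as it called 0% of all genes, and the lowest adjusted p among them was 0.999. With the mouse as a block it also called 0, with a lowest adjusted p of 0.796. At an unadjusted p under 0.05 stood 1 of the 10 without the block, against 4.16% of all genes, and 2 of the 10 with it, against 6.09%. DESeq2 called 0 of the 10 without and with the block, where it called 0.236% and 0.577% of all genes. Its unadjusted p was under 0.05 for 1 of them (5.34% of all genes) and, with the block, for 2 (7.15%). Limma on log2(TPM + 1) called 0 of the 10 without and with the block (0% and 0.0588% of all genes), and its unadjusted p was under 0.05 for 1 (4.65%) and, with the block, for 3 (9.2%). Values of the 2 groups did not overlap for 4 of the 10 genes, and the same held for 33.6% of the 8540 genes whose mean log2 CPM (counts scaled to the library total) is 3 or higher, where all 10 lie, and for 34.5% of all tested genes. With 2 libraries against 2, an exact permutation test of a single gene cannot give a two-sided p under 0.333.

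**Figure D2:**
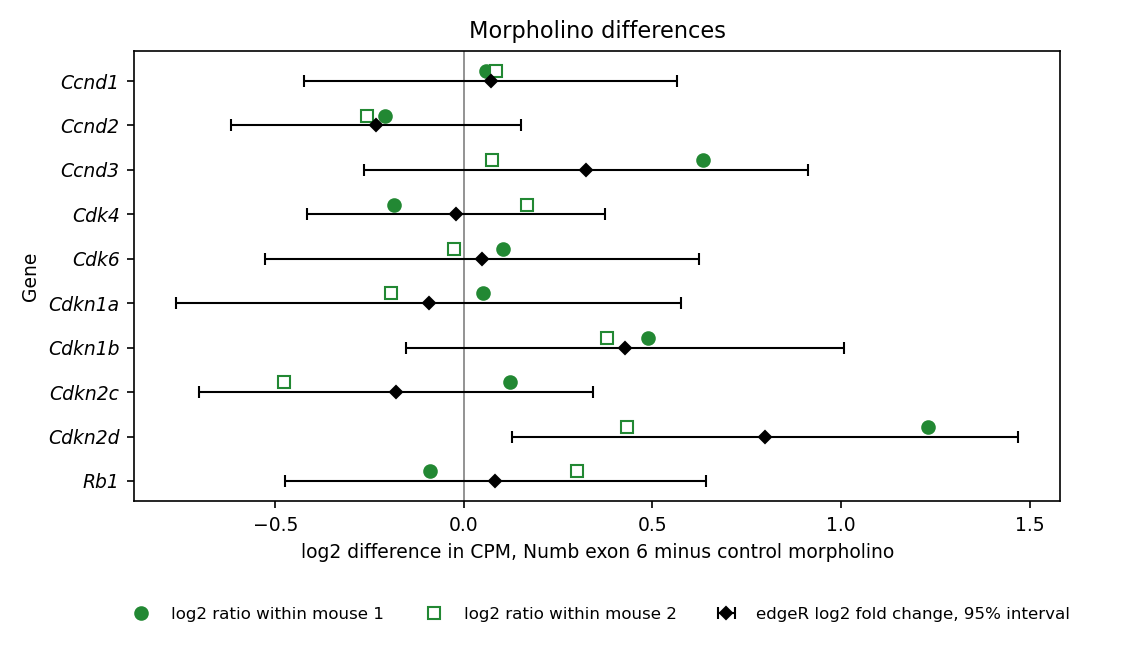
Log2 differences in CPM, Numb exon 6 minus control morpholino, for the 10 genes: circles, ratio within mouse 1; squares, ratio within mouse 2; diamonds, edgeR log2 fold change with its 95% interval (n = 2 per group). The interval, from the fit without the mouse as a block, spans 0 for 9 genes, and Cdkn2d, at 0.80, is the exception before adjustment. With the block, which is not drawn, the interval of Cdkn1b (0.10 to 0.77) also lies above 0 before adjustment.

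Among the cyclin D genes, Ccnd3, the cyclin D linked to the differentiation of muscle cells, stood at 15.0 TPM with the control and 24.5 TPM with the Numb exon 6 morpholino in mouse 1, and at 21.8 and 25.0 TPM in mouse 2. Both Numb exon 6 libraries were above both controls, and the control of mouse 1 was lowest by a wide margin. The log2 fold change of Ccnd3 in counts was 0.32 ± 0.23 (SE, from 2 libraries per group here and in all that follows), with 0.63 within mouse 1 and 0.07 within mouse 2. Its 95% interval ran from -0.26 to 0.91. Without the control library of mouse 1 the log2 fold change was 0.06. The processed pseudogene Ccnd3-ps, whose reads may be shared with Ccnd3, had 5.18 to 7.57 TPM, and summing the counts of both, an alternative chosen after seeing the data, gave 0.26. In GRCm38, the build of all gene positions given here, Ccnd3 (ENSMUSG00000034165.16) lies on chromosome 17 at 47505051-47599691, plus strand.

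Ccnd1, the cyclin D most directly driven by growth factors, stood at 16.7 TPM with the control and 18.1 TPM with the Numb exon 6 morpholino in mouse 1, and at 13.7 and 14.7 TPM in mouse 2. The libraries of mouse 1 were above those of mouse 2, and the morpholino groups overlapped. Its log2 fold change of 0.07 ± 0.19 (SE) had a 95% interval from -0.42 to 0.57, and the sign turned without the Numb exon 6 library of mouse 1 or the control library of mouse 2 (-0.10 each). Ccnd1 (ENSMUSG00000070348.5) lies on chromosome 7 at 144929931-144939925, minus strand.

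Ccnd2 stood at 13.8 CPM under the control and 12.0 CPM under the Numb exon 6 morpholino in mouse 1, and at 14.0 and 11.7 CPM in mouse 2. In counts both Numb exon 6 libraries were below both controls, with a log2 fold change of -0.23 ± 0.15 (SE). Per length the groups overlapped, at 4.43, 4.45, 4.60 and 4.36 TPM in the same order, and the log2 fold change on log2(TPM + 1) was -0.03. The lower count went with a shorter implied transcript, described further on. Ccnd2 (ENSMUSG00000000184.12) lies on chromosome 6 at 127125162-127152193, minus strand.

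Per length, the makeup of the cyclin D pool differed between libraries. Ccnd3 made up 41.5% and 52.0% of the summed cyclin D TPM under the control and the other morpholino in mouse 1, and 54.5% and 56.7% in mouse 2. Ccnd1 made up 46.3%, 38.5%, 34.0% and 33.4% in the same order. Ccnd1 was the leading cyclin D only in the control library of mouse 1, and Ccnd3 led in the other three. Ccnd2 held 9.47% to 12.2%, with both Numb exon 6 libraries below both controls. The sum of the 3 was 36.2, 47.0, 40.1 and 44.1 TPM in that order, again highest in the Numb exon 6 libraries.

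**Figure D3:**
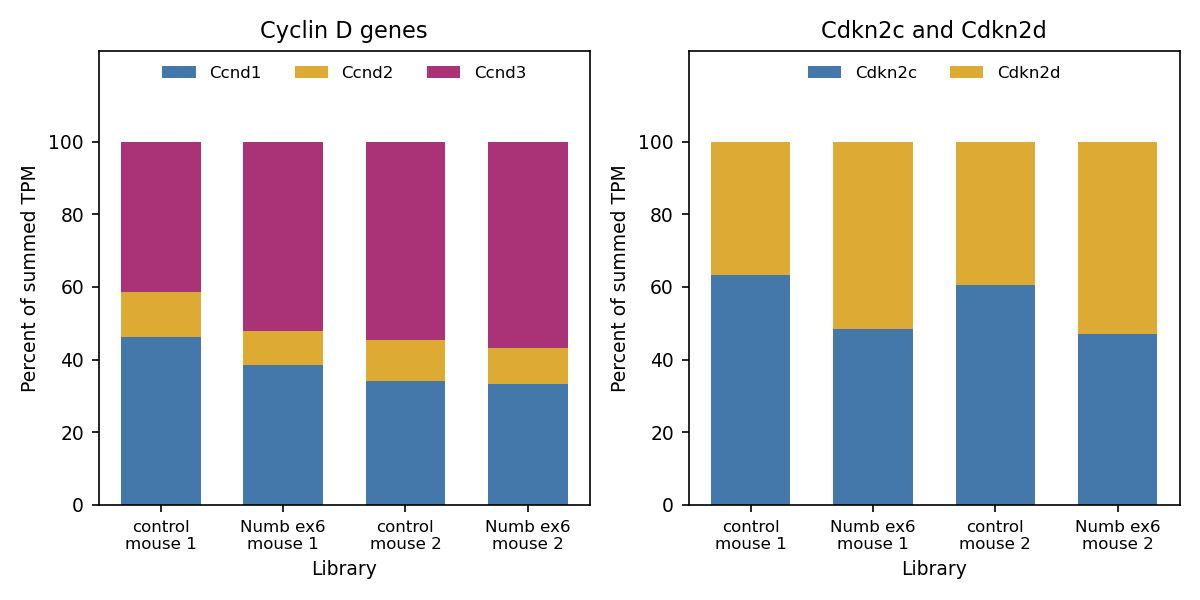
Stacked bars of the share of each gene in the summed TPM (percent) of the 3 cyclin D genes (left) and of Cdkn2c and Cdkn2d (right) in each library. Ccnd3 takes 41.5% to 56.7% of the cyclin D sum, and Cdkn2d takes 36.7% and 39.4% in the controls against 51.6% and 52.99% in the Numb exon 6 libraries.

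Of the catalytic partners, Cdk4 stood at 96.5 TPM with the control and 86.7 TPM with the Numb exon 6 morpholino in mouse 1, and at 75.7 and 84.1 TPM in mouse 2. Both Numb exon 6 values lay between the controls, and the mice differed in direction (log2 ratios of -0.19 and 0.17 in counts). The log2 fold change of Cdk4 was -0.02 ± 0.15 (SE), with a 95% interval from -0.41 to 0.37, and 0.16 without the control library of mouse 1. Cdk4 shares 641 exonic bases with Tspan31 on the opposite strand, which stood at 121 to 169 TPM. Since the libraries do not mark the strand, reads there cannot be assigned to either gene with certainty. Cdk4 (ENSMUSG00000006728.12) lies on chromosome 10 at 127063534-127067920, plus strand.

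Cdk6, which can stand in for Cdk4, stood at 4.88 TPM with the control and 5.58 TPM with the Numb exon 6 morpholino in mouse 1, and at 4.39 and 4.01 TPM in mouse 2. Mouse 1 was the higher one under both morpholinos. Its log2 fold change was 0.05 ± 0.23 (SE; 95% interval -0.53 to 0.62), and -0.21 once the Numb exon 6 library of mouse 1 was left out. Per length, Cdk4 took 93.9% to 95.4% of the TPM of the pair in every library, 15.5 to 21.0 times the level of Cdk6. The implied mean transcript of Cdk6 is 8097 to 8900 bases long, against 1527 to 1636 for Cdk4, so the counts show a smaller gap (Cdk4 73.5% to 79.4%). Cdk6 (ENSMUSG00000040274.11) lies on chromosome 5 at 3341485-3531008, plus strand.

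Among the CIP/KIP inhibitors, Cdkn1a had 527 CPM under the control and 545 CPM under the Numb exon 6 morpholino in mouse 1, and 836 and 732 CPM in mouse 2. The mouse and not the morpholino parted these values. Its log2 fold change was -0.09 ± 0.26 (SE; 95% interval -0.76 to 0.58), and with the mouse as a block it was -0.07 ± 0.09 (SE; edgeR adjusted p = 0.923). It was -0.39 without the control library of mouse 1 and 0.27 without that of mouse 2. Cdkn1a made up 92.5% to 95.4% of the summed TPM of the 4 inhibitors. The mean transcript length implied by its counts and TPM was 1740 to 1769 bases in the 4 libraries. Annotated transcripts run from 922 bases, for the one that begins at the upstream start beside the p53 element, to 1913 and 2080 bases for those that begin at 29093769 and 29093781. The implied mean was nearer to these longer transcripts, whose starts lie downstream of the window shown. Cdkn1a (ENSMUSG00000023067.14) lies on chromosome 17 at 29090976-29100727, plus strand.

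Cdkn1b, whose product p27 holds CDK2 in check, stood at 8.78 TPM with the control and 13.8 TPM with the Numb exon 6 morpholino in mouse 1, and at 13.4 and 16.0 TPM in mouse 2. It was higher with the Numb exon 6 morpholino in both mice, and the groups were parted by a narrow margin (13.4 against 13.8 TPM). The log2 fold change in counts was 0.43 ± 0.23 (SE; 95% interval -0.15 to 1.01), with 0.49 within mouse 1 and 0.38 within mouse 2. With the mouse as a block it was 0.43 ± 0.13 (SE), with an unadjusted edgeR p of 0.020 and an adjusted p of 0.796. It was 0.21 once the control library of mouse 1 was left out, and 0.67 once that of mouse 2 was. Cdkn1b (ENSMUSG00000003031.14) lies on chromosome 6 at 134920401-134925513, plus strand.

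The INK4 gene Cdkn2d had the largest difference and the smallest p of the 10. It stood at 8.03 TPM with the control and 18.5 TPM with the Numb exon 6 morpholino in mouse 1, and at 12.2 and 16.8 TPM in mouse 2. Both Numb exon 6 libraries were above both controls, and the difference was larger in mouse 1 (log2 ratios in counts of 1.23 and 0.43), which was not tested. The log2 fold change was 0.80 ± 0.26 (SE; 95% interval 0.13 to 1.47), with an unadjusted edgeR p of 0.028 and an adjusted p of 0.999. With the mouse as a block it was 0.83 ± 0.24 (SE; unadjusted edgeR p of 0.020, adjusted p = 0.796). The lowest adjusted p of Cdkn2d under any alternative was 0.0715, from DESeq2 with the block, and DESeq2 without it gave 0.371. Leaving out the control library of mouse 1 gave 0.51, and leaving out that of mouse 2 gave 1.15. Cdkn2d (ENSMUSG00000096472.2) lies on chromosome 9 at 21288410-21291407, minus strand.

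The control library of mouse 1 was the lowest of the 4 in CPM for Ccnd3, Cdkn1a, Cdkn1b and Cdkn2d. For Cdk4 (79.4 CPM) and Rb1 (20.1 CPM) the same library was the highest. How often it was lowest over all genes was not counted. It also had the fewest genes above 0 TPM, 34743 against 35133 to 35898, and the largest rRNA-like share given above. The part of these features in the differences was not tested. Of 10 leukocyte markers, 9 were higher and 1 was lower under the Numb exon 6 morpholino in both mice, and their summed TPM went from 29.4 to 40.5 in mouse 1 and from 35.9 to 131 in mouse 2. Most of the last value came from S100a8 and S100a9 (46.5 and 36.0 TPM). Markers of glia, endothelium and erythroid cells were higher mainly in mouse 1. Their summed TPM went from 17.6 to 34.7, 89.5 to 128 and 538 to 928 in mouse 1, and from 18.2 to 19.2, 87.0 to 90.7 and 1531.5 to 1733 in mouse 2. Of these lists, 3 of 6 glial, 3 of 8 endothelial and 5 of 5 erythroid genes were higher in both mice and 0 were lower in both. Satellite cell markers also rose more in mouse 1 (summed TPM 9394 to 11054, against 10169 to 11147 in mouse 2). Those of fibro-adipogenic progenitors rose more in mouse 2 (764 to 883, against 877 to 958 in mouse 1). In both mice 5 of 7 satellite and 5 of 8 progenitor genes were higher, and 0 were lower. Of all tested genes, 28.1% were higher and 27.3% lower in both mice. No marker of these lists was at 0 in all libraries. The part of RNA from other cells in the differences was not tested.

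Cdkn2c stood at 13.9 TPM with the control and 17.3 TPM with the Numb exon 6 morpholino in mouse 1, and at 18.7 and 14.9 TPM in mouse 2. The mice differed in direction and the groups overlapped, with a log2 fold change of -0.18 ± 0.21 (SE; 95% interval -0.70 to 0.34). Within the INK4 pair, chosen for this comparison after the values were seen, Cdkn2d took 36.7% (mouse 1) and 39.4% (mouse 2) of the TPM with the control morpholino and 51.6% and 52.99% with the Numb exon 6 morpholino. The shift was 14.9 and 13.6 percentage points, alike in both mice, although the sum of the pair went from 21.9 to 35.8 TPM in mouse 1 and from 30.9 to 31.7 TPM in mouse 2. In mouse 1 it came with a higher Cdkn2d and in mouse 2 with a lower Cdkn2c as well. Cdkn2c (ENSMUSG00000028551.14) lies on chromosome 4 at 109660876-109667189, minus strand.

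Rb1, the substrate of the cyclin D kinases and keeper of E2F, stood at 9.36 TPM with the control and 9.29 TPM with the Numb exon 6 morpholino in mouse 1, and at 6.80 and 8.51 TPM in mouse 2. The control of mouse 2 was the low one, and the groups overlapped. The log2 fold change was 0.08 ± 0.22 (SE; 95% interval -0.47 to 0.64), and -0.16 without that library. Exons of Lpar6 and Rcbtb2 on the opposite strand share 408 and 488 bases with Rb1, at 4.89 to 7.65 and 6.06 to 9.85 TPM. Of the other genes, Ccnd1 shares 1100 exonic bases with LTO1 (5.62 to 9.31 TPM) and Ccnd3 shares 361 with Bysl (33.4 to 40.2 TPM), both antisense to them. Rb1 (ENSMUSG00000022105.6) lies on chromosome 14 at 73183673-73325822, minus strand.

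The sign of the difference was the same in both mice for 5 of the 10 genes. Ccnd1, Ccnd3, Cdkn1b and Cdkn2d were higher in both and Ccnd2 was lower in both. Among the 8540 genes above that limit of expression, 31.1% were higher and 30.1% lower in both mice. The median log2 fold change of the 10 genes was 0.06, and that of all tested genes was 0.005. Without the mouse as a block, the 95% interval reached past a 2-fold difference for Cdkn1b and Cdkn2d and stayed within it for the other 8. With the block the interval of Cdkn1b ran from 0.10 to 0.77, and that of Cdkn2d from 0.20 to 1.47.

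Other genes of the G1 to S step or linked to it were described through 6 lists with 70 genes, all of them tested. The lists include 21 targets of E2F and 15 p53 targets besides Cdkn1a. The death genes Pmaip1 and Bbc3 are among the p53 targets, so the pooled counts are not of G1 to S genes alone. The edgeR test called 0 of the 70 with and without the mouse as a block. At an unadjusted p under 0.05 stood 6 (8.57%), against 4.16% of all genes, and 8 (11.4%) with the block, against 6.09%. DESeq2 called 0, and 8 had an unadjusted p under 0.05, as had 5.34% of all genes. Once the mouse was a block it called 1, Pmaip1, and 0.577% of all genes. With that block 12 of the 70 had an unadjusted DESeq2 p under 0.05, against 7.15% of all genes. Limma on log2(TPM + 1) tested 68 of the 70 and called 0, and 4 had an unadjusted p under 0.05, as had 4.65% of all genes. With the block limma also called 0, and 7 had an unadjusted p under 0.05, against 9.2%. Of the 70, 23 were higher and 17 were lower under the Numb exon 6 morpholino in both mice, where 28.1% and 27.3% of all tested genes were. Their median log2 fold change was -0.02.

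Cyclin E, CDK2 and the factors that load or activate these kinases numbered 8 genes, 3 of them higher and 3 lower in both mice (median log2 fold change -0.06). Cdk2, the kinase of cyclin E, stood at 10.5 TPM with the control and 23.2 TPM with the Numb exon 6 morpholino in mouse 1, and at 20.5 and 23.3 TPM in mouse 2. As with Cdkn2d, the control library of mouse 1 was the low one, and the log2 fold change was 0.58 ± 0.35 (SE). Cdk7, the catalytic subunit of the CDK-activating kinase, had a log2 fold change of -0.29 ± 0.17, and Cdc37, the chaperone partner that folds CDK4, one of -0.13 ± 0.12 (SE).

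Of the 6 remaining inhibitors and pocket proteins, 2 were higher and 2 lower in both mice (median 0.10). Cdkn1c, the imprinted gene of p57, was the most abundant, at 8.31 TPM with the control and 13.6 TPM with the Numb exon 6 morpholino in mouse 1 and at 21.0 and 10.2 TPM in mouse 2, and differed in opposite directions in the mice. Rbl2, the relative of Rb1 that acts in resting cells, stood at 5.93 to 8.17 TPM with a log2 fold change of 0.48 ± 0.18 (SE; unadjusted edgeR p of 0.041), and Rbl1 at 0.48 to 1.35 TPM with 1.03 ± 0.46 (SE).

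The 10 E2F and DP genes had 5 higher and 3 lower in both mice (median 0.002). E2f4, a repressor E2F, led at 28.9 to 32.6 TPM with a log2 fold change of -0.05 ± 0.15, followed by E2f5 with 0.06 ± 0.14 (SE). Tfdp2, a DP partner, had 0.55 ± 0.24 and E2f7 0.57 ± 0.38 (SE). Of 10 genes of the machinery that degrades cyclin D or the CIP/KIP proteins, 1 was higher and 2 lower in both mice (median -0.10). Skp1a, the adaptor of SCF ubiquitin ligases, stood at 159 and 144 TPM in mouse 1 and 176 and 126 TPM in mouse 2, with a log2 fold change of -0.45 ± 0.15 (SE; unadjusted edgeR p of 0.032). Skp2, the F-box protein that marks p27 for degradation, had -0.27 ± 0.23, and the cullin Cul1 had -0.07 ± 0.11 (SE).

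Among 21 targets of E2F, 7 were higher and 3 lower in both mice (median 0.04). Pcna, the sliding clamp of DNA replication, led at 156 to 173 TPM with a log2 fold change of 0.04 ± 0.11, and the helicase subunit Mcm7 had -0.11 ± 0.16 (SE). Mcm4 had 0.46 ± 0.16 and the licensing factor Cdc6, at 0.55 to 1.96 TPM, had -1.37 ± 0.48 (SE), each with an unadjusted edgeR p of 0.035. Of 15 p53 targets besides Cdkn1a, 5 were higher and 4 lower in both mice (median 0.006). Gadd45a and Btg2, both antiproliferative, had log2 fold changes of 0.09 ± 0.15 and 0.35 ± 0.23 (SE). The death genes Pmaip1 and Bbc3 had 1.04 ± 0.36 and -0.62 ± 0.22 (SE; unadjusted edgeR p of 0.033 and 0.036). Pmaip1 stood at 10.9 and 19.3 TPM in mouse 1 and 17.1 and 37.0 TPM in mouse 2, and DESeq2 with the mouse as a block gave it a log2 fold change of 0.98 ± 0.17 (SE; adjusted p = 7.7e-06).

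The mice were set side by side, 1 animal against 1, without a test. Cdkn1a was higher in mouse 2 under both morpholinos, by 0.67 with the control and 0.42 with the Numb exon 6 morpholino on the log2 CPM scale. Ccnd1, Cdk6 and Rb1 were lower in mouse 2 under both, by log2 differences of -0.35 and -0.32, -0.34 and -0.47, and -0.52 and -0.13. The libraries of the mice did not overlap for these 4 of the 10 genes (1 higher and 3 lower in mouse 2), and for 48.7% (20.4% higher and 28.3% lower) of the 8540 genes above that limit of expression. None of the 10 differed over 1.5-fold in the same direction under both morpholinos, and 1.87% of those genes and 11.9% of all tested genes did. Cdkn1a thus exceeded the cyclin D sum 15.3- and 13.0-fold in mouse 1 and 22.8- and 18.8-fold in mouse 2. Summed erythroid marker TPM was also higher in mouse 2 (1531.5 and 1733 against 538 and 928), and its part in the difference was not tested. The 15 other p53 targets had median log2 differences between the mice of 0.18 with the control and -0.08 with the Numb exon 6 morpholino.

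**Figure D4:**
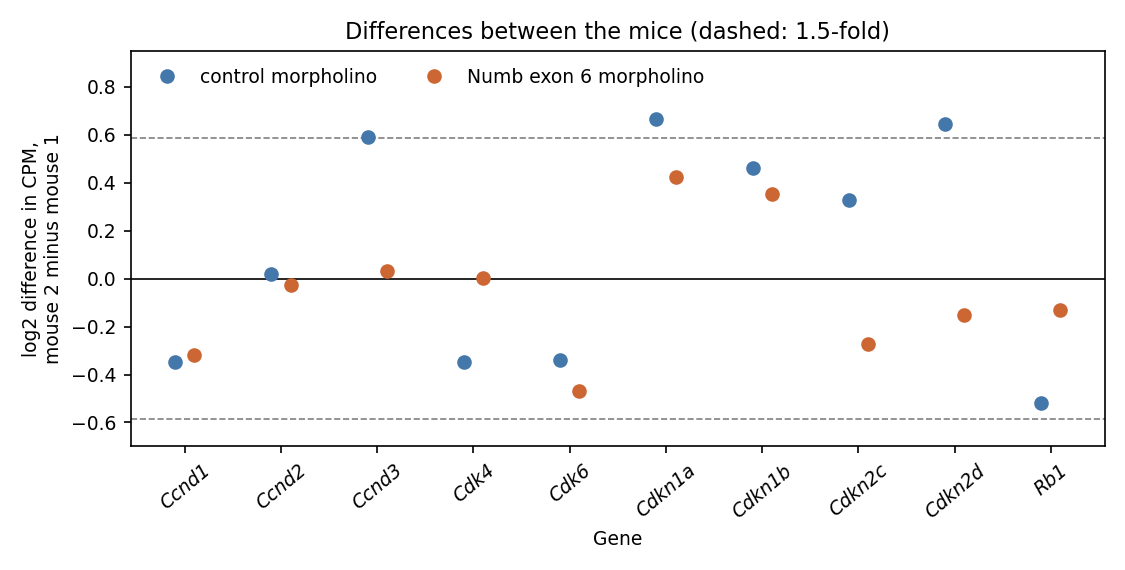
Log2 difference in CPM, mouse 2 minus mouse 1, for the 10 genes with the control (blue) and the Numb exon 6 morpholino (orange); dashed lines mark 1.5-fold. Cdkn1a lies above 0 under both (0.67 and 0.42), and Ccnd1, Cdk6 and Rb1 lie below 0 under both.

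Counts and TPM of a gene part when the mix of its transcripts shifts, since their ratio follows the mean transcript length. Of the 10 genes, Ccnd2 and Cdkn2c had an implied length that was shorter by over 0.1 on the log2 scale with the Numb exon 6 morpholino in both mice, as had 1.34% of 7479 genes with more than 1 annotated transcript and a mean log2 CPM no lower than 3. None of the 10 was longer by that much in both mice, and 2.43% of those genes were. The limit of 0.1 lies close below the size of the shifts of Ccnd2 and Cdkn2c, so these shares are no test of them. At a limit of 0.5, which 0.0936% of those genes passed in the same direction in both mice, none of the 10 passed. The shifts of Ccnd2 and Cdkn2c also lay below the 90th percentile of absolute shifts, which was 0.15 in each mouse. Ccnd2 went from 5788 to 5261 bases in mouse 1 and from 5847 to 5290 bases in mouse 2. It has 8 annotated transcripts of 115 to 6330 bases, so the mix behind this shift is not fixed by the mean.

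Cdkn2c went from 1391 to 1277 bases in mouse 1 and from 1337 to 1233 bases in mouse 2. It was the only one of the 10 with 2 annotated transcripts, both protein-coding: one of 2471 bases that starts at 109667189 on chromosome 4 (GRCm38, minus strand) and one of 1106 bases that starts at 109665372. If only these contributed, the long transcript made up 20.9% and 12.5% of Cdkn2c TPM under the control and the Numb exon 6 morpholino in mouse 1, and 16.9% and 9.34% in mouse 2. The long transcript then stood at 2.90 and 2.17 TPM in mouse 1 and at 3.16 and 1.39 TPM in mouse 2, lower with the Numb exon 6 morpholino in both. The short transcript stood at 11.0 and 15.2 TPM in mouse 1 and at 15.5 and 13.5 TPM in mouse 2, with no common direction. This split was solved here from the deposited counts and TPM with GENCODE vM21 lengths, and the authors gave no transcript values used here. Their annotation release is not known. With 2 libraries per group, no test was made of the split.

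**Figure D5:**
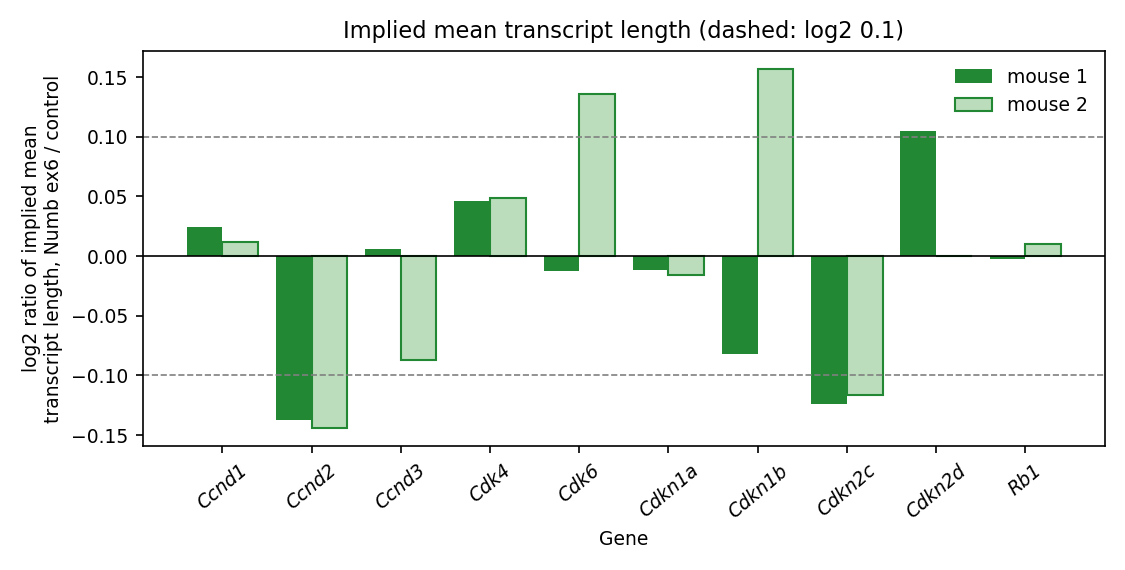
Log2 ratio of the implied mean transcript length, Numb exon 6 over control morpholino, for the 10 genes in mouse 1 (dark bars) and mouse 2 (light bars); dashed lines mark 0.1. Ccnd2 (-0.14 in each mouse) and Cdkn2c (-0.12 in each mouse) lie below the lower line in both mice.

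Profiles over the 4 libraries were compared by the Euclidean distance between centred log2 CPM values, over 7976 named genes above the same limit. The gene nearest to Cdkn1a was Arc, at 23.5 and 23.7 CPM in mouse 1 and 36.7 and 32.6 CPM in mouse 2 (distance 0.03). Nearest to Ccnd1, Ccnd2 and Ccnd3 were Nup155, Sfswap and Asap1, and nearest to Cdk4, Cdk6 and Rb1 were Wdr1, Frmd8 and Pskh1, at distances of 0.02 to 0.04. Cdkn1b was nearest to Idi1 and Cdkn2c to Tpst2. Cdkn2d had the fewest like profiles, with Gstz1 nearest at a distance of 0.18 and 3 genes within 0.2, where the other members had 77 to 1051. With 4 libraries many genes share a profile.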

How the data were processed

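RNA was extracted from muscle stem cells of 2 mice, and 5 ng per sample was made into cDNA by SMART-Seq2, per the labels' protocols. SMART-Seq2 is a full-length method that keeps no strand information. Per the submitters' processing notes, HISAT2 2.1.0, StringTie 1.3.6 and GRCm38 were used. The annotation release, the read length and how coverage became counts are facts not given in the sources used here. Per gene, the authors deposited estimated counts, which are whole numbers, and TPM values scaled to transcript length. Gene models were taken from GENCODE vM21 (GRCm38) and upstream sequence from RefSeq.

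Main test: edgeR 4.0.16 in R 4.3.3 (quasi-likelihood, robust, TMM factors, default filter, no block), Benjamini-Hochberg adjustment over 27551 genes at 0.05. SE values derive from the quasi-likelihood statistic. Log2 ratios within a mouse use a prior count of 2. Samples of the same number come from the same mouse, so the mouse pairs them. After removal of group means, libraries of a mouse correlated at 0.41 across the 8540 genes whose mean log2 CPM was 3 or higher, and at 0.06 over all. Without the block the p-values take the libraries of the 2 animals as independent and rest in part on their spread within a group. With it they rest in part on how far the difference within a mouse varied between the 2 mice. In both fits the spread of a gene is moderated by a spread shared across genes. A p-value or SE is therefore not a measure of that gene's own spread alone.

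Implied mean transcript length is count over TPM, divided by 1 constant per library from genes with 1 transcript and over 500 counts. Also tried were the mouse as a block, RLE size factors, no filter or a stricter one, DESeq2 1.42.0, limma 3.58.1 on log2(TPM + 1) and log2(TPM + 0.1), counts divided by 4, and removal of each library. The tests were checked on simulated data that held no difference between the mice, so the pairing by mouse was not part of that check. The members and lists were chosen with earlier results of these data known. Besides the 10 members, the genes named are, for each pathway list, the 2 with the highest mean TPM and the 2 with the smallest p among those of the same sign in both mice; for each marker list the 2 of highest mean TPM were fixed as well and are shown only where a result turns on them.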

Additional observations from a re-analysis of the deposited data

How the results depend on the processing

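None of the 10 genes was called under any of the 14 alternatives, and the mouse as a block changed no call in edgeR. Over all genes, edgeR called 0 without the block and 0 with it, against 10 without a filter on low counts, 1 where 2 libraries had to reach a CPM of 5, 65 in DESeq2, 159 in DESeq2 with the mouse as a block and 11 in limma on log2(TPM + 1) with it; leaving out 1 library gave 0 to 1. Among the 70 other pathway genes 1 was called, by DESeq2 with the mouse as a block. Leaving out a library turned the sign of Ccnd1 (range -0.10 to 0.25), Cdk4 (-0.195 to 0.16), Cdk6 (-0.21 to 0.26), Cdkn1a (-0.39 to 0.27) and Rb1 (-0.16 to 0.37); the lone library of a group was then assumed to vary like the other group. It kept the sign of Ccnd2, Ccnd3, Cdkn1b, Cdkn2c and Cdkn2d, as did every other alternative. Over all alternatives the log2 fold change ran from -0.33 to -0.0014 for Cdkn2c, so its sign was kept only barely. It ran from -0.25 to -0.03 for Ccnd2 and from 0.06 to 0.64 for Ccnd3. For Cdkn1b it ran from 0.21 to 0.67, and for Cdkn2d from 0.51 to 1.15. Shares of CPM in place of TPM, which weigh long transcripts more, gave means of 47.7% for Ccnd1, 20.7% for Ccnd2 and 31.6% for Ccnd3 (38.1%, 10.8% and 51.2% in TPM), 76.8% for Cdk4 and 23.2% for Cdk6 (94.8% and 5.22%), and 2.81% for Cdkn1b and 1.62% for Cdkn2c (1.71% and 2.17%). On log2(TPM + 1) the mean difference between the mice was -0.28 for Ccnd1 and -0.26 for Cdk6, against -0.33 and -0.40 in log2 CPM.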
